A study of Mus musculus with 4 samples.

Results

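Bile duct epithelium makes bile more alkaline and more watery, and 9 genes of that task are described here: Cftr, Sctr, Slc4a2, Slc4a4, Ano1, Aqp1, Aqp4, Itpr3 and Car2. They were picked by name, are 9 of the 50766 genes in the deposited tables, and all 9 had counts in the 4 libraries. Each library is 1 liver sample, taken as 1 mouse, of the genotype Sox9EGFP, a reporter in which green fluorescent protein marks cells that express Sox9, and the submitters label the cells as biliary epithelial cells (BECs). Surgery was 7 days earlier, either a sham operation (2 mice) or bile duct ligation (BDL, 2 mice), which blocks the outflow of bile. All 4 mice carried the reporter, age and sex are not given in the sources used here, and fixed cells were profiled by split-pool barcoding with unique molecular identifiers (UMIs).

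Secretion by these cells is known to run along a few connected routes. Secretin binds its receptor on the blood-facing side and raises cyclic AMP, which opens the chloride channel CFTR on the duct side, while calcium released through inositol trisphosphate receptors opens the chloride channel anoctamin 1. Chloride in the duct is exchanged for bicarbonate by the anion exchanger of Slc4a2, bicarbonate is supplied by carbonic anhydrase and by sodium bicarbonate cotransport, and water follows through aquaporins.

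The group names stored in the cell tables go against the sample labels for sham replicate 2, which is called BDL there, and for BDL replicate 2, which is called sham. Groups below are those of the sample labels. Of 12 BEC-like clusters, 11 drew at least 97.3% of their cells from 1 labelled group. Cluster 1 had 1035 cells from sham replicate 1, 697 from sham replicate 2 and 3 from each BDL replicate. Cluster 2 had 3, 0, 463 and 1119 cells in that order. By clusters each replicate 2 thus lay with the replicate 1 of its label, and how the stored names arose was not tested. Log2 fold changes over sham replicate 1 and BDL replicate 1 alone, whose names match their labels, are also given. They cover each set of cells and carry no test. BDL replicate 2 also stood apart in Xist, at 1953 counts per 1e6 UMIs (CPM) in BEC-like cells against 7.93 to 9.94 in the other 3 libraries. Over all kept cells Xist was at 1918 against 7.76 to 10.3 CPM. Sex is not given and may differ within the BDL group, and its part in the results below was not tested. No cell barcode was shared between libraries. The libraries held 2089 to 4065 cells and 10024577 to 33809650 UMIs, and 12179 of 12211 cells were kept. Cells called BEC-like from markers numbered 2614 and 2595 after sham surgery and 1968 and 3831 after BDL, and all 14 biliary markers had UMIs in them in each library. Their median depth was 3305 and 2771 UMIs per cell after sham surgery and 7130 and 7876 after BDL. In the same cells the summed hepatocyte markers were 1270 and 1306 CPM against 161 and 132, with all 12 of 12 detected. The 15 mesenchymal markers summed to 363 and 263 CPM against 1251 and 1535, of which Rgs5 made up 233 and 150 against 1223 and 1477 TMM-scaled CPM, while Col1a1 stayed between 2.55 and 5.49 CPM. The part of depth and of these markers in the results below was not tested, except where a value with equal depth is given.

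For each library the UMIs of its BEC-like cells were added up and scaled by TMM factors, and the levels below are CPM of that kind. In BEC-like cells 3 of the 9 genes, Cftr, Slc4a4 and Car2, were higher in the BDL libraries at an adjusted p under 0.05 and 0 were lower by edgeR. Before adjustment the edgeR p was 0.0393 for Aqp1 and 0.0188 for Aqp4, both lower, and neither passed after it. With DESeq2 0 were lower at the adjusted threshold. The share of all genes under 0.05 without adjustment is not given, so no count is read from these 2 values. Between sham replicate 1 and BDL replicate 1 alone, the log2 fold change was 0.97 for Cftr, 0.69 for Slc4a4 and 1.44 for Car2. It was 0.30 for Ano1, 0.22 for Itpr3, 0.20 for Slc4a2, -0.20 for Sctr, -1.41 for Aqp1 and -1.17 for Aqp4, and Sctr was the 1 gene of the 9 with another sign than over all 4 libraries. Of all 15979 genes tested, 14.2% were higher and 12.8% were lower at an adjusted p under 0.05, 27.0% in all. The 9 genes had a median log2 fold change of 0.46, against -0.03 for all genes tested. The tests are edgeR's quasi-likelihood F test with Benjamini-Hochberg adjustment over all genes tested, and n = 2 mice per group throughout. A fit without 1 library leaves 1 group with a single library, which is assumed to vary like the other group, so its p-value rests on the spread of 2 libraries.

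**Figure D1:**
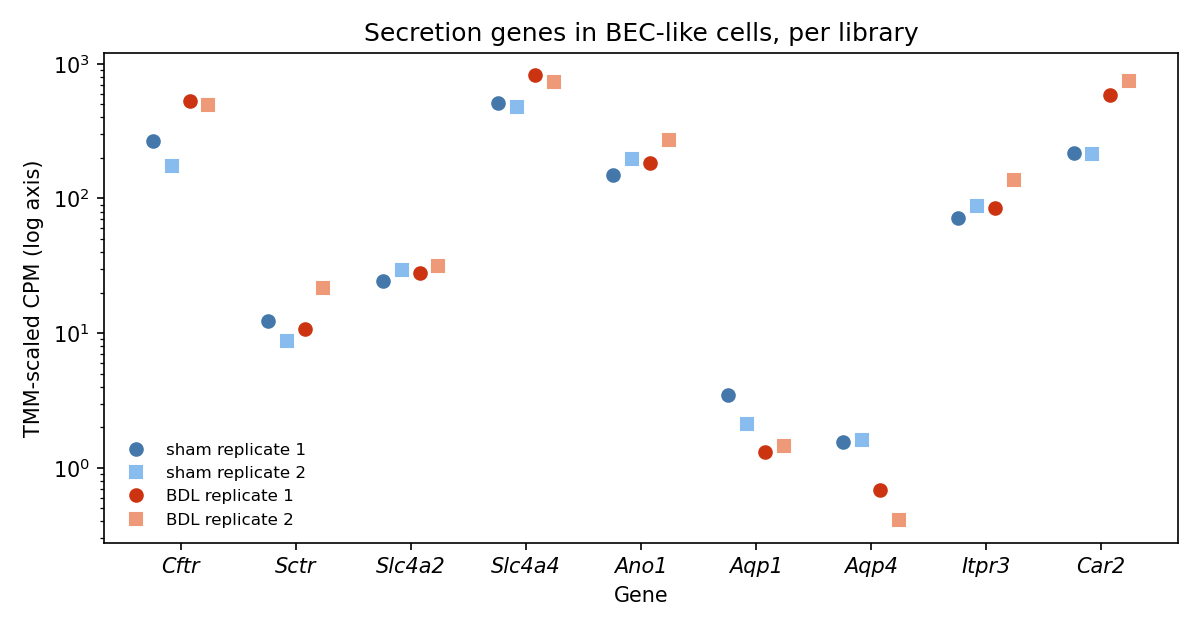
TMM-scaled CPM of the 9 genes (x axis) in BEC-like cells on a log axis, 1 point per library, with sham libraries in blue and BDL libraries in red. The BDL points lie above both sham points for Cftr, Slc4a4 and Car2, from 175 to 269 against 495 to 525 CPM for Cftr, and the groups overlap for Sctr, Slc4a2, Ano1 and Itpr3.

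Cftr encodes the cyclic AMP-regulated chloride and bicarbonate channel of the duct-facing membrane. Its level was 269 CPM in sham replicate 1, 175 in sham replicate 2, 525 in BDL replicate 1 and 495 in BDL replicate 2. Both BDL libraries lay above both sham libraries, and the sham libraries differed more from each other than the BDL libraries did. The log2 fold change was 1.20 (SE 0.20, adjusted p = 0.00745), a 2.30-fold rise. It passed the threshold in 13 of 13 processing alternatives, in 4 of 4 fits without 1 library (0.95 to 1.56), and in 8 of 8 sublibraries fitted alone (0.84 to 1.27).

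Slc4a4 encodes the electrogenic sodium bicarbonate cotransporter, which carries bicarbonate into epithelial cells. The libraries read 510 and 476 CPM after sham surgery and 822 and 729 CPM after BDL, with no overlap. The rise was 1.57-fold (log2 fold change 0.65, SE 0.12, adjusted p = 0.0109). Without sham replicate 2 the log2 fold change was 0.63 and no longer passed the threshold. In 8 sublibraries it ranged from 0.46 to 1.27 and passed in 6, the others being sublibraries 2 and 3.

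RefSeq promoters were at hand for 6 of the 9 genes, not for Sctr, Car2 and Aqp4. They are shown for Cftr and Slc4a4, the genes of the 3 that rose for which the table has an entry, to let the starts of genes that moved together be read side by side. Each line gives 250 bases that end at the base before the annotated start, 5′ to 3′ on the gene's strand, in build GRCm38.p6. This is an older build than the GRCm39 named for the counting. Capitals mark the GC box, GGGCGG, and the box named after its letters, CCAAT, on either strand.
Cftr, chr6:18170437-18170686, plus strand: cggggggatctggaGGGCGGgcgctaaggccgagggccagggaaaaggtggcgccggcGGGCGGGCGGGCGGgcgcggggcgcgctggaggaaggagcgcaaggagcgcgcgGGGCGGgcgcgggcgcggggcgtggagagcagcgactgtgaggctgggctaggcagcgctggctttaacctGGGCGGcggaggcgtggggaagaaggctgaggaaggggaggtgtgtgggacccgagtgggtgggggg
Slc4a4, upstream start, chr5:88887010-88887259, plus strand: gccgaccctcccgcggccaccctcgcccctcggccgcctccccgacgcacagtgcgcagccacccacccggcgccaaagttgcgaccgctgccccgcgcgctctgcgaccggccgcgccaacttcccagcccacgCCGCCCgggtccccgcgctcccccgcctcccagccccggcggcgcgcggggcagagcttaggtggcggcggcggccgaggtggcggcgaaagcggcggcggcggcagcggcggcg
Slc4a4, downstream start, chr5:89027716-89027965, plus strand: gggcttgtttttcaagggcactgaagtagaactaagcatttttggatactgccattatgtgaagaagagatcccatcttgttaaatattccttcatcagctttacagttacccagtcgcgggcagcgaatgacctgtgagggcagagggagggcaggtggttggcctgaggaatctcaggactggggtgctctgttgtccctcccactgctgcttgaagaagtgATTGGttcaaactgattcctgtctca

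The Cftr window was 76.4% G and C and held GGGCGG 6 times, 3 of them in 1 overlapping stretch. The upstream window of Slc4a4 was 82.0% G and C with GGGCGG once, and the downstream one was 48.8% G and C with CCAAT once, both on the opposite strand. Of 32851 RefSeq promoter windows of that length, 32.7% held GGGCGG and 33.8% held CCAAT. The cAMP response element TGACGTCA, present in 1.55% of windows, had no match in these 3. Its part TGACG, found in 17.8% of windows, was likewise not there. The start motif written TATAAA is in 12.4% of windows and the AP-1 site TGAGTCA in 4.46%, and neither had a match here. A match is a run of letters and no evidence of binding, and the counts do not tell which start was used.

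Car2 encodes cytosolic carbonic anhydrase 2, which forms bicarbonate from carbon dioxide. The sham libraries read 217 and 213 CPM and the BDL libraries 587 and 749 CPM. The sham libraries nearly coincided and the BDL libraries were far above them. The rise was 3.11-fold (log2 fold change 1.64, SE 0.15, adjusted p = 0.000896). It passed the threshold in all 13 processing alternatives and in all 4 fits without 1 library (1.46 to 1.83), and in all 8 sublibraries (1.49 to 1.68).

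Ano1 encodes the calcium-activated chloride channel anoctamin 1, and Itpr3 the inositol trisphosphate receptor that releases calcium near the duct-facing pole. Ano1 was at 149 and 195 CPM after sham surgery and at 183 and 271 CPM after BDL. The value of BDL replicate 1 fell between the sham libraries. The log2 fold change was 0.40 (SE 0.21, adjusted p = 0.203). Itpr3 was at 72.2 and 88.6 CPM against 84.3 and 136 CPM, again with BDL replicate 1 inside the sham range (log2 fold change 0.46, SE 0.23, adjusted p = 0.181). Without BDL replicate 1, with BDL replicate 2 as the lone BDL library, Ano1 was at 0.68 (adjusted p = 0.000199) and Itpr3 at 0.79 (adjusted p = 8.75e-06), values whose spread comes from the sham libraries alone. Without BDL replicate 2 the values were 0.10 and 0.08.

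Sctr encodes the secretin receptor. Sham libraries gave 12.3 and 8.69 CPM and BDL libraries 10.7 and 21.7 CPM, on 70 to 692 UMIs. Only BDL replicate 2 was above both sham libraries (log2 fold change 0.64, SE 0.35, adjusted p = 0.220). Without BDL replicate 1 the value was 1.06 (adjusted p = 1.82e-05, with the spread from the sham libraries alone), and without BDL replicate 2 it was 0.02 (adjusted p = 0.958). Slc4a2 encodes the chloride bicarbonate exchanger AE2, and its values were 24.4 and 29.7 CPM against 28.1 and 31.4 CPM. The groups overlapped (log2 fold change 0.14, SE 0.15, adjusted p = 0.518).

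Both aquaporins were near the limit of detection in BEC-like cells. Aqp1, the water channel of many endothelia and epithelia, had 36, 17, 19 and 46 UMIs in all, or 3.49 and 2.11 CPM after sham surgery and 1.31 and 1.44 CPM after BDL. The BDL libraries were lower without overlap, and the difference missed the threshold (log2 fold change -1.03, SE 0.40, adjusted p = 0.103). Aqp4, a water channel described at the blood-facing membrane, had 10 to 16 UMIs per library, or 1.55 and 1.61 CPM against 0.69 and 0.41 CPM. It too was lower without overlap and missed the threshold (log2 fold change -1.58, SE 0.51, adjusted p = 0.0625). Without BDL replicate 1 the value was -1.91 (adjusted p = 0.0437), from 13 UMIs in the lone BDL library and with the spread of the sham libraries alone.

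The same 3 genes were higher when UMIs were summed over all kept cells of a library, where 26.6% of 16754 genes were called. These are nearly the same counts again. BEC-like cells held 27571 of 27702 UMIs of Cftr, 44243 of 45527 of Slc4a4 and 36342 of 36515 of Car2. The log2 fold changes were 1.31 for Cftr (adjusted p = 0.0112), 0.76 for Slc4a4 (adjusted p = 0.0108) and 1.75 for Car2 (adjusted p = 0.00153). Slc4a4 was lost without sham replicate 2 (0.69, adjusted p = 0.0568). Between sham replicate 1 and BDL replicate 1 alone the values were 1.04, 0.75 and 1.51, and -0.67 for Aqp1. Aqp1 was lower in whole libraries, at 7.10 and 9.55 against 4.46 and 3.89 CPM (log2 fold change -0.997, adjusted p = 0.0338). In such sums fewer cells of a type and less RNA per cell cannot be told apart. Endothelial-like cells numbered 39 and 120 after sham surgery and 18 and 34 after BDL, and within them Aqp1 was at 702 and 510 CPM against 848 and 603 CPM. The call for Aqp1 was lost without sham replicate 1 (adjusted p = 0.0636), sham replicate 2 (0.199) or BDL replicate 2 (0.0961), and with DESeq2 (0.0516).

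At equal depth the shares of BEC-like cells with a UMI of Cftr, Slc4a4 or Car2 were also higher in both BDL libraries. Each cell was thinned to 1000 UMIs, which left out 76 and 105 sham cells and 0 BDL cells. Cftr was then detected in 19.6% and 11.6% of cells after sham surgery and in 34.5% and 33.4% after BDL. The exact 95% intervals of these shares were 18.1 to 21.2, 10.4 to 12.97, 32.4 to 36.6 and 31.9 to 35.0%, which cover counting error only. Shares for Slc4a4 were 33.2% and 31.2% against 47.7% and 45.0%, and for Car2 they were 16.2% and 15.6% against 35.5% and 41.4%. For these 3 genes every BDL library was above every sham library. With 2 libraries a group the exact two-sided permutation test cannot go below p = 0.33, which 6 of the 9 genes reached, these 3 with Ano1, Aqp1 and Aqp4 (0.50 adjusted over the 9 genes).

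Among mesenchymal-like cells, a class that should lack Cftr, the thinned share with a Cftr UMI was 1.66, 2.45, 1.41 and 2.27%, at median depths of 2577 to 7324.5 UMIs before thinning. For Car2 it was 1.66, 3.54, 2.82 and 5.30%. For Slc4a4 it was higher, at 7.73 and 12.3% after sham surgery and 18.3 and 22.0% after BDL, the same direction as in BEC-like cells. Among the 17 to 56 endothelial-like cells per library it was 1.79 to 17.6% for Cftr and 0 to 5.88% for Car2. In every library the shares for all 3 genes were higher in BEC-like than in mesenchymal-like cells. Unthinned shares in BEC-like cells were larger, 39.1% and 24.7% against 78.0% and 80.2% for Cftr. At equal depth Ano1 gave 13.3% and 13.4% against 15.1% and 21.3%, Itpr3 6.78% and 7.35% against 7.06% and 11.4%, Sctr 1.54% and 0.60% against 1.27% and 1.70%, and Slc4a2 2.72% and 3.05% against 2.90% and 2.79%, all thinned. The same shares in mesenchymal-like cells ranged from 0.27 to 1.41% for Sctr and from 1.41 to 2.76% for Slc4a2. These overlap the BEC-like shares, but for Sctr they rest on 1, 1, 1 and 2 UMIs per library before thinning. By CPM, Sctr in mesenchymal-like cells was at 8.40 to 18.4% of its BEC-like level, against 60.3 to 126% for Slc4a2. Between sham and BDL libraries the BEC-like shares of both genes overlapped. Aqp1 was found in 0.10 to 0.43% of BEC-like cells and in 0 to 1.41% of mesenchymal-like cells. The latter held only 4, 4, 2 and 4 Aqp1 UMIs before thinning. The part of free RNA or mixed cells in the BEC-like share of Aqp1 was not tested. In endothelial-like cells the share for Aqp1 was 25 to 52.9%, on 17 to 56 cells per library.

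Within the BEC-like cells the 9 genes did not share 1 pattern. The BEC-like cells fell into 12 clusters, and in 11 of these at least 97.3% of cells came from 1 group, 5 mostly sham and 6 mostly BDL, so groups could not be compared within them. Cells were clustered again without these genes and without genes at an unadjusted p under 0.05 between the groups, which gave 6 subclusters. Subcluster 1 was led by Nos2 and Rasal1, subcluster 2 by the early response genes Fos and Jun, subcluster 3 by Ankrd1 and Apol8, subcluster 4 by Dnah12 and Zfp13, subcluster 5 by Dmbt1 and Cdh13, and subcluster 6, found almost only in sham libraries, by Sgcd and Ugt1a10. The share of BEC-like cells in subcluster 1 was 8.30% and 3.85% after sham surgery and 30.8% and 49.3% after BDL, and that in subcluster 2 was 30.8% and 48.1% against 13.1% and 11.8%. Levels by subcluster are plain CPM and are a description, with no test between subclusters.

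Cftr and Slc4a4 had their highest mean level in subcluster 3 and their lowest in subclusters 5 and 6. Cftr in subcluster 3 was at 397 and 323 CPM after sham surgery and at 611 and 577 CPM after BDL, and in subcluster 5 at 180 and 86.6 against 357 and 284 CPM. The sham levels of Cftr in subcluster 6 were 110 and 80.3 CPM, which overlap those of subcluster 5. Slc4a4 in subcluster 3 was at 621 and 554 against 924 and 776 CPM, and in subcluster 5 at 395 and 339 against 668 and 681 CPM. Over the 5 subclusters measured in both groups, the highest mean was 2.70 times the lowest for Cftr and 1.60 times for Slc4a4 after sham surgery, against 1.85 and 1.26 times after BDL. With subcluster 6, measured in sham libraries only, the sham ratios were 3.79 and 2.14.

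Car2, Ano1 and Itpr3 had their highest mean levels in subclusters 6 and 5 after sham surgery and in subcluster 5 after BDL. Their lowest means lay in different places, for Car2 in subcluster 2, for Ano1 in subcluster 3 and for Itpr3 in subcluster 4 after sham surgery and subcluster 3 after BDL. Car2 was at 541 and 365 CPM in sham cells of subcluster 5 and at 1228.7 and 1459.9 CPM in BDL cells. In subcluster 2 it was at 71.1 and 74.2 against 126 and 126 CPM, so the mean in the highest BDL subcluster was 10.6 times that in the lowest. Ano1 in sham cells was at 503 and 451 CPM in subcluster 6 and at 390 and 433 CPM in subcluster 5, both far above the 95.6 and 86.8 CPM of subcluster 3. Itpr3 in sham cells was at 130 and 157 CPM in subcluster 6 and at 124 and 148 CPM in subcluster 5, ranges that overlap, against 47.9 and 41.6 CPM in subcluster 4.

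Sctr followed neither order. It was highest in subclusters 2 and 4, at 21.3 and 11.6 CPM and at 19.6 and 15.996 CPM in sham cells. Sham cells of subcluster 5 had 0 UMIs of it in both libraries, on 53 cells each, where 1 UMI is 4.29 and 3.61 CPM. In BDL cells Sctr reached 26.8 and 47.6 CPM in subcluster 2, against 2.81 and 6.93 CPM in subcluster 5. For Slc4a2 the highest mean after sham surgery, in subcluster 2, was 1.79 times the lowest, in subcluster 3. Over the 22 sums of a subcluster in a library with at least 50 cells, Pearson's r of log2 levels was 0.93 between Cftr and Slc4a4, 0.84 between Ano1 and Itpr3 and 0.78 between Itpr3 and Car2, but -0.30 between Cftr and Ano1. These sums share libraries and depth, and r is given as a description.

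**Figure D2:**
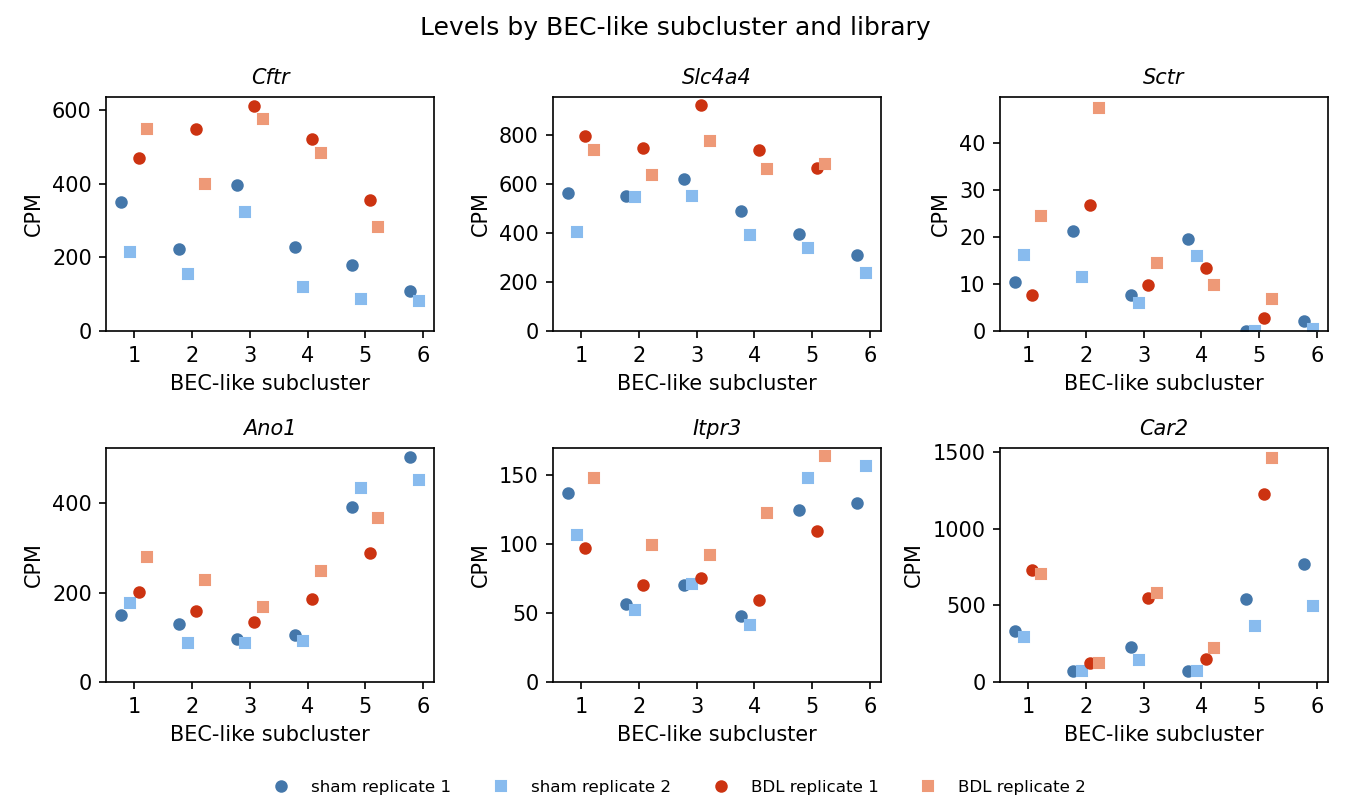
CPM (y axis, from 0) of 6 genes in each BEC-like subcluster (x axis), 1 point per library with at least 50 cells in the subcluster. Cftr is lowest in subcluster 5 or 6 in each library, and Ano1, Itpr3 and Car2 have their highest means in those subclusters, with Car2 at 1228.7 and 1459.9 CPM in the BDL libraries of subcluster 5.

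Cftr and Car2 also rose inside these subclusters, whose making left out genes with a group difference. In the 5 subclusters with at least 50 cells in every library, Cftr passed the threshold in 5, with log2 fold changes of 0.71 to 1.47, and Car2 in 5, with 0.63 to 1.62. Of all genes tested, those higher at that threshold were 7.30% in subcluster 1, 10.2% in subcluster 2, 13.4% in subcluster 3, 8.19% in subcluster 4 and 2.16% in subcluster 5. Slc4a4 passed in 4, with 0.53 to 0.92, and was at 0.17 (SE 0.15, adjusted p = 0.465) in subcluster 2. For Car2 the smallest value was also in subcluster 2 (0.63, SE 0.15, adjusted p = 0.0116). Between sham replicate 1 and BDL replicate 1 alone, Cftr was at 0.42 to 1.25 and Car2 at 0.78 to 1.30 over the 5 subclusters. Differences between subclusters in these fold changes were not tested.

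Ano1, which missed the threshold over all BEC-like cells, passed it in subclusters 2 (0.71, adjusted p = 0.0154), 3 (0.71, adjusted p = 0.00211) and 4 (1.10, adjusted p = 0.00211). It stood at 0.54 (adjusted p = 0.0844) in subcluster 1 and at -0.29 (SE 0.19, adjusted p = 0.463) in subcluster 5, where sham cells stood at 390 and 433 CPM. Between sham replicate 1 and BDL replicate 1 alone, Ano1 was at 0.25, 0.53 and 0.85 in subclusters 2, 3 and 4. Sctr passed in subcluster 2 alone among the 4 where it could be tested (1.12, SE 0.29, adjusted p = 0.0171), and was at 0.28 there over those 2 libraries. Itpr3 and Slc4a2 passed in 0 of 5 by edgeR. Before adjustment the edgeR p of Itpr3 was under 0.05 in subclusters 2 and 4, where its adjusted p was 0.0707 and 0.0552. For Slc4a2 it was 0.263 or more in each. The share of all genes under 0.05 without adjustment is not given, so no count is read from these values. Aqp1 and Aqp4 had too few UMIs to be tested in any subcluster.

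**Figure D3:**
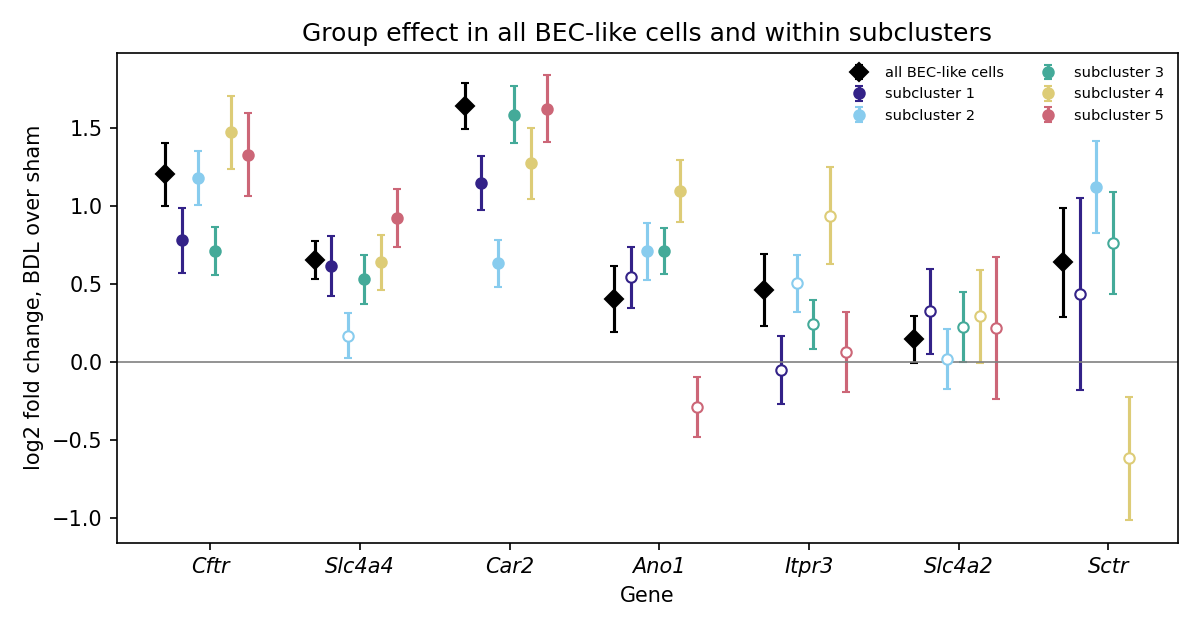
Log2 fold change of BDL over sham (y axis) with its standard error for 7 genes, in all BEC-like cells (black diamonds) and in each of 5 subclusters (circles, filled where the adjusted p was under 0.05). Cftr and Car2 are filled in all 5 subclusters, and Ano1 is filled in 3 and lies at -0.29 in subcluster 5.

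Genes outside the 9 whose levels were most like each gene over those 22 sums were taken from 6342 genes with a mean of at least 20 CPM. For Cftr they were Asz1 (r = 0.90), Rgs5 (0.89) and Ptpn13 (0.89), and for Slc4a4 Ptpn13 (0.93), Dusp16 (0.93) and Rgs5 (0.88). For Ano1 they were Pear1 (0.95), Pxn (0.95) and Plec (0.94), for Itpr3 Plekhg3 (0.91), Serinc2 (0.90) and Bcl3 (0.90), and for Car2 Lpin2 (0.96), Rap2b (0.96) and Septin11 (0.95). Sctr was nearest to Baz2a (0.91), Bmpr2 (0.90) and Osbpl9 (0.89), and Slc4a2 to Pds5b (0.85), Bmpr2 (0.84) and Gtf2ird1 (0.83). The value for Aqp1 (Cox8a, 0.75) rests on few UMIs.

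Ano1 was the 1 gene of the 8 tested, all but Aqp4, whose response differed by test between BEC-like and mesenchymal-like cells. The mesenchymal-like cells, 187 and 412 after sham surgery and 71 and 132 after BDL, had plain CPM for Ano1 of 172 and 317 after sham surgery and of 58.4 and 55.1 after BDL. All BDL values lay far below all sham values. The log2 fold change was -2.19 (adjusted p = 0.00897), in a comparison where 4.15% of 8728 genes were lower at the threshold. The difference of the 2 log2 fold changes, BEC-like minus mesenchymal-like, was 2.53 (SE 0.31, adjusted p = 5.23e-06), against 6.20% of 15294 genes called in that test, and it was 2.16 to 2.82 with each library left out. Between sham replicate 1 and BDL replicate 1 alone, Ano1 was at -1.51 in mesenchymal-like cells and the difference was 1.81.

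The mesenchymal-like class was made up of different clusters in the groups. A cluster led by Sntg1 and Ntm, with Reln, Dcn and Lrat, genes of stellate cells, among its 10 leading genes, held 56.7% and 75.5% of the class after sham surgery and 39.4% and 15.9% after BDL. A cluster led by the collagens Col1a1 and Col1a2 held 9.63% and 3.88% against 59.2% and 82.6%. A cluster led by C7 and Igfbp3 held 33.7% and 20.6% against 1.41% and 1.52%, which is 1 and 2 cells after BDL. In the first cluster Ano1 was at 324 and 442 CPM against 154 and 246 CPM, on 21 to 311 cells. In the collagen-led cluster it had 0 UMIs in both sham libraries, on 18 and 16 cells, and was at 16.8 and 28.1 CPM in the BDL libraries. In the cluster led by C7 the sham libraries read 55.3 and 122 CPM. The part of this shift in the Ano1 result was not tested.

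For the other genes the difference between the classes missed the threshold: 0.87 for Cftr (adjusted p = 0.330), 1.08 for Car2 (adjusted p = 0.123), 1.43 for Itpr3 (adjusted p = 0.104), 0.10 for Slc4a4 (adjusted p = 0.909) and -0.48 for Slc4a2 (adjusted p = 0.612). Without BDL replicate 2 the difference for Car2 was 1.67 and passed (adjusted p = 0.0441). Slc4a4 in mesenchymal-like cells was at 207 and 175 CPM against 249 and 320 CPM, which is 30.6 to 44.3% of its BEC-like level in the same libraries. Cftr there was at 3.37 to 15.1% and Car2 at 3.35 to 13.2% of the BEC-like level. For the 14 biliary markers the median of that share was 3.82 to 10.7% and the range 0 to 139%. The top of the range was Bicc1 alone, at 77.5 to 139%. The other markers reached at most 23.1%, so Slc4a4 lay above all of them and Cftr and Car2 within their range. Slc4a2 was at 60.3 to 126% of its BEC-like level, so it did not separate these classes.

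Macrophage-like cells, 17 to 30 per library, read 15.5 to 347 CPM for Cftr, on 2 to 8 UMIs, and 7 of the 14 biliary markers also met the marker limits in their cluster. The part of free RNA or mixed cells in that value was not tested.

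**Figure D4:**
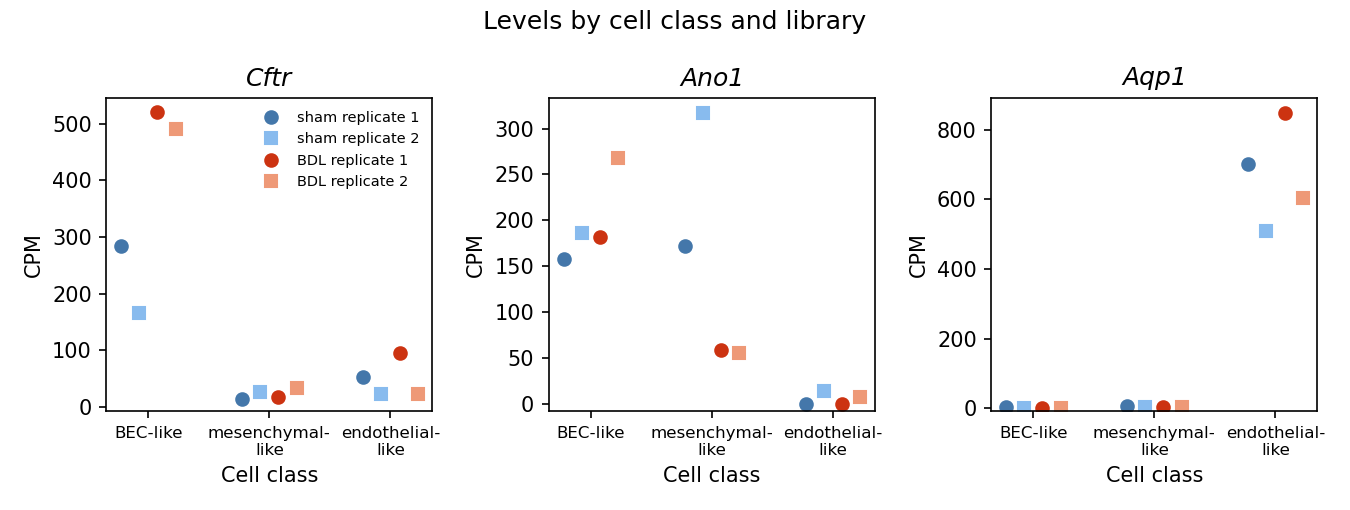
Plain CPM (y axis) of Cftr, Ano1 and Aqp1 in 3 cell classes (x axis), 1 point per library. Ano1 in mesenchymal-like cells falls from 172 and 317 CPM in the sham libraries to 58.4 and 55.1 CPM in the BDL libraries, and Aqp1 is high in endothelial-like cells alone among the 3 classes drawn.

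Aqp1 was mainly in endothelial-like cells, at 510 to 848 CPM with overlapping groups. In BEC-like cells it was at 1.30 to 3.69 plain CPM and in mesenchymal-like cells at 3.25 to 5.64 CPM, ranges that meet. Aqp4 had 0 UMIs in mesenchymal-like and endothelial-like cells, which allows up to 0.842 and 7.89 CPM at 3 UMIs of all UMIs of the class. Slc4a4 in hepatocyte-like cells was at 124 CPM in sham replicate 2 and at 879 and 1268.0 CPM in the BDL libraries, on 34, 7 and 32 cells, and these came mostly from different clusters. No test was made there, since sham replicate 1 had 2 such cells.

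Genes of the same routes were read from 7 lists holding 156 genes, of which 117 were tested in BEC-like cells, 19 higher, 28 lower and 70 below the threshold in either direction. Of these 40.2% were called, beside the 27.0% of all genes, and the median log2 fold change was -0.04, against -0.03 for all genes tested. Of the chloride channels and transporters 6 of 20 tested were higher and 1 was lower, with a median of 0.30. Slc12a2, the cotransporter that loads chloride into secretory cells, read 196 and 192 CPM after sham surgery and 705 and 831 CPM after BDL. The BDL libraries were 3.96-fold above (log2 fold change 1.99, SE 0.13, adjusted p = 0.000387), and this held in each fit without 1 library. Clcn7, a lysosomal chloride proton exchanger, rose from 8.14 and 8.07 to 15.7 and 19.98 CPM (1.14, adjusted p = 0.00771). Clcn7 was lost without sham replicate 2 (adjusted p = 0.0588) and passed in 3 of 7 single sublibraries.

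Of 13 genes of bicarbonate and proton transport 2 were higher and 4 were lower, with a median of -0.01. Slc4a7, the electroneutral sodium bicarbonate cotransporter, was at 108 and 97.4 CPM against 253 and 269 CPM (log2 fold change 1.35, SE 0.11, adjusted p = 0.000764). Slc4a11, of the same family, was at 9.21 and 7.94 against 30.3 and 53.9 CPM (2.30, adjusted p = 0.00292). Both BDL libraries were above both sham libraries for each. Slc4a5 and Atp1b1 were among the lower genes.

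Among the other carbonic anhydrases 2 of 8 tested were higher and 1 was lower, with a median of -0.64. Car4, the membrane-anchored form, read 6.78 and 18.2 CPM after sham surgery against 1.31 and 2.20 CPM after BDL (log2 fold change -2.76, SE 0.51, adjusted p = 0.0101). Car4 is among the 10 leading genes of subcluster 6, which held 9.98% and 21.3% of BEC-like cells after sham surgery and 0.41% and 0.34% after BDL, and the part of that shift in its value was not tested. Car13 and Car9 were higher (0.71, adjusted p = 0.0127, and 1.36, adjusted p = 0.0382). Car4 was lost without sham replicate 2 (adjusted p = 0.0548), Car13 without either sham library (up to 0.104) and Car9 without any library but BDL replicate 1 (up to 0.190) or without cluster 11 (0.0529). In single sublibraries Car13 passed in 0 of 7 by edgeR and Car9 in 2 of 6. Of 3 aquaporins tested besides the members, Aqp5 was lower, at 2.04 and 2.73 against 0.48 and 0.63 CPM (-2.05, adjusted p = 0.0193, lost without either sham library, up to 0.161).

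Of 29 genes of secretin and cyclic AMP signalling 3 were higher and 10 were lower, with a median of -0.42. The adenylyl cyclases Adcy2 (71.3 and 55.6 against 32.8 and 24.96 CPM, log2 fold change -1.14, adjusted p = 0.00663) and Adcy9 (38.2 and 34.6 against 13.6 and 19.7 CPM, -1.12, adjusted p = 0.00879) fell, as did Pde3b, an enzyme that breaks cyclic AMP down (57.9 and 56.4 against 34.4 and 34.0 CPM, -0.74, adjusted p = 0.00547). Adcy9 and Pde3b were lost without either sham library (up to 0.0569 and 0.0554). Vipr1, a receptor for vasoactive intestinal peptide, Prkacb and Adcy1 were higher in BEC-like cells, and the somatostatin receptor gene Sstr2 was among the lower ones. Vipr1, at 3.20 to 9.22 CPM in BEC-like cells, was lower in mesenchymal-like cells, from 290 and 311 to 58.8 and 27.9 CPM (-2.89, adjusted p = 0.00313), and in whole libraries (-1.62, adjusted p = 0.0131).

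Of 23 genes of calcium and purinergic signalling 2 were higher, Trpv4 and Panx1, and 5 were lower, with a median of -0.02. Plcb1, a phospholipase C that makes inositol trisphosphate, read 304 and 238 CPM after sham surgery and 37.3 and 33.2 CPM after BDL (log2 fold change -2.94, SE 0.16, adjusted p = 0.000327). The muscarinic receptor gene Chrm3 was at 424 and 447 against 194 and 207 CPM (-1.12, adjusted p = 0.00122). Itpr1, another inositol trisphosphate receptor gene, was at 257 and 220 against 111 and 85.8 CPM (-1.28, adjusted p = 0.0025), while Itpr3 did not pass. All 3 held in each fit without 1 library.

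Of 21 genes for scaffolds, kinases and trafficking of CFTR 4 were higher and 6 were lower, with a median of -0.01. The kinase gene Sgk1 fell from 107 and 99.2 to 33.8 and 31.8 CPM (log2 fold change -1.65, SE 0.12, adjusted p = 0.000427). Ahcyl2 fell from 192 and 197 to 117 and 112 CPM (-0.76, adjusted p = 0.00386), and Rab11fip5, of recycling endosomes, rose from 10.6 and 12.7 to 33.1 and 37.8 CPM (1.62, adjusted p = 0.00127). Nherf1, the scaffold that tethers CFTR at the duct-facing membrane, was among the lower genes.

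**Figure D5:**
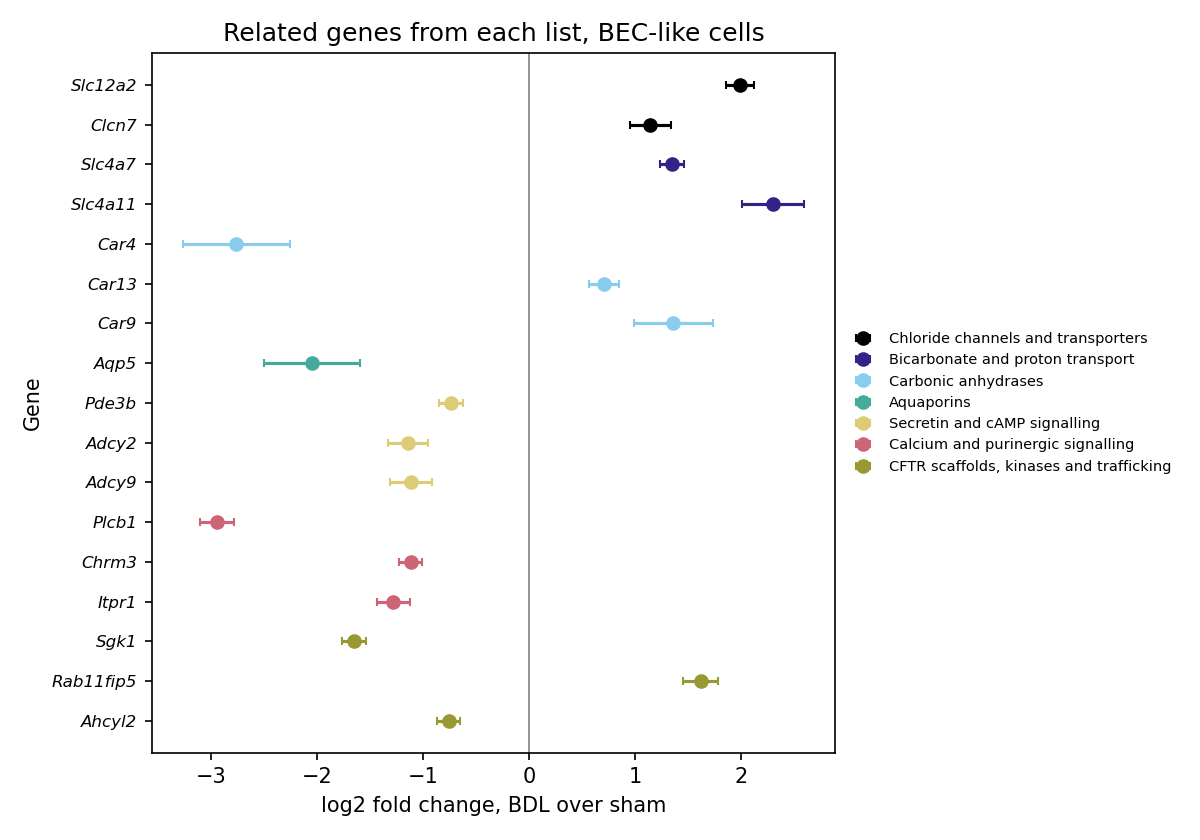
Log2 fold change of BDL over sham (x axis) with its standard error for related genes from each list (y axis, colours by list) in BEC-like cells. The chloride loader Slc12a2 lies at 1.99 and the phospholipase Plcb1 at -2.94.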

How the data were processed

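The deposited matrices hold UMI counts per cell and gene with no normalization, per the file headers, and their sums per cell match the transcript counts of the cell table exactly. Evercode Whole Transcriptome libraries with oligo(dT) and random hexamer primers were made, per the labels' protocols. The build GRCm39 comes from the submitters' processing notes, and software, strand handling and doublet removal are not given in the sources used here. The cell tables also carry a deposited 50dup column, whose scale is not stated and which was not used.

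Cells under 500 UMIs (7) or over 20% mitochondrial UMIs (11) were left out of 12211. Scrublet called 14 doublets (0.115%), too few to have worked, and they were removed. Counts were log-scaled and 2000 variable genes, without the 9 genes, gave 30 components for Leiden clustering at resolution 1 (scanpy 1.11.5, leidenalg 0.10.2). The 20 clusters were named from 14 marker lists (at least 3 markers, each in 5% of cells and 2-fold up, and for other classes at least 50% of the list, a limit set after the data were seen). The main test was edgeR's two-sided quasi-likelihood F test (edgeR 4.0.16 under R 4.3.3) with TMM factors, the default filter on low counts and Benjamini-Hochberg adjustment at 0.05. The test between classes kept the library as a block, and subclusters used resolution 0.5. With DESeq2 1.42.0 as an alternative, other scalings, filters, cell sets, left-out libraries and single sublibraries were tried. CPM by class and subcluster are plain. On simulated data with 200 genes changed by 2 (log2) the BEC-like fit recovered 100% with 8 false calls among 15590 genes, and the mesenchymal-like fit 83.0% with 2 among 8302.

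The 9 genes, the lists and the tests were chosen with earlier results of these data known. Named are all 9 members and, from each list, up to 3 genes with the smallest adjusted p under 0.05, and the genes most like each member by Pearson's r of log2(CPM + 10). Some genes that this rule names are not reported here. Other list genes were named after their values were seen. Replicate numbers follow sample order. Each sample was taken as 1 mouse, which the labels do not spell out, so p-values measure the spread between these samples.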

Additional observations from a re-analysis of the deposited data

Results flagged for a closer look

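The fold change of BDL over sham differed between BEC-like and mesenchymal-like cells for Ano1, by 2.53 on the log2 scale, BEC-like minus mesenchymal-like (SE 0.31, adjusted p = 5.23e-06, edgeR's interaction test with the library as a block). The log2 fold change was -2.19 in mesenchymal-like cells and 0.40 in BEC-like cells. The same test singled out 5 related genes. Slc12a2 differed by 2.21 (adjusted p = 6.35e-06, 1.99 in BEC-like and -0.24 in mesenchymal-like cells), Slc4a7 by 1.02 (adjusted p = 0.0383) and Slc4a11 by 4.22 (adjusted p = 0.000728). The Slc4a11 value rests on 9, 7, 2 and 2 UMIs in mesenchymal-like cells, too few for a test within that class. Plcb1 differed by -2.64 (adjusted p = 6.3e-06, -2.94 in BEC-like and -0.28 in mesenchymal-like cells) and Sgk1 by -1.34 (adjusted p = 0.00409). These are 6 of 27 named genes tested, where 6.20% of all genes passed. Of the 27, 19 had been picked for a small adjusted p in BEC-like cells, so the count is not read against that share.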

How the results depend on the processing

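In BEC-like cells 4311 genes were called, 52.6% of them higher. The 13 processing alternatives gave 3298 (at least 10 CPM) to 5940 (no filter), and the share higher was 41.8% with upper quartile factors and 62.7% with no filter. Upper quartile factors moved the median of all genes to -0.13 and left Cftr, Slc4a4 and Car2 called. Leaving out 1 library gave 1500 to 6495 genes. Sublibraries 1 to 8 alone, with fewer genes tested, gave 589, 2368, 1852, 2228, 2032, 1990, 2194 and 1836. Leaving out 1 library gave 1346 to 5239 genes in whole libraries and 204 to 978 in mesenchymal-like cells (588 with all), where DESeq2 gave 367 and no filter 1109. The causes of these shifts were not tested. Without the filter Ano1, Itpr3 and Sctr also passed (adjusted p = 0.00134, 0.000571 and 0.0038), Aqp4 passed with stricter cell limits (0.0343), and Itpr3 passed in whole libraries with DESeq2 (0.0498). Without cluster 11, an alternative chosen after seeing the data, the count was 4153.

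Directions turned for values that were not called. Slc4a2 was at -0.10 in sublibrary 3 and -0.32 in sublibrary 8, and between sham replicate 1 and BDL replicate 1 alone Sctr was at -0.20, at -0.13 in whole libraries and at -0.46 in subcluster 1, and Itpr3 at -0.10 in subcluster 5. With 1 library left out, mesenchymal-like Cftr ranged from -0.21 to 1.06 (-0.0049 without sham replicate 1) and Car2 from -0.20 to 1.13, and the difference between classes from -0.26 to 1.56 for Cftr, -0.13 to 0.39 for Slc4a4 and -0.76 to 0.37 for Sctr. The share difference in percentage points ranged from -0.053 to 0.88 for Sctr, -0.21 to 0.13 for Slc4a2 and -0.00019 to 4.32 for Itpr3, and for Slc4a2 it was 0.78 at 2000 UMIs and 10.6 unthinned. No paired analysis was possible because replicates are unnumbered in the labels. Depth limits Aqp1 and Aqp4, with 10 to 46 UMIs per library.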

Other observations

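Of 13 genes next to the 9 on the chromosome that could be tested, 6 passed the threshold in BEC-like cells, 4 higher and 2 lower, and 7 did not, where 27.0% of all genes were called. They were taken by gene order in a RefSeq table of build GRCm38.p6, a step chosen after the data were seen. Asz1, before Cftr, was the most like it over subclusters of the genes compared outside the 9. Its level was 28.5 and 11.5 TMM-scaled CPM after sham surgery and 174 and 174 CPM after BDL (log2 fold change 3.10, SE 0.35, edgeR adjusted p = 0.00195). Both BDL libraries were far above both sham libraries. Cttnbp2, after Cftr, went the other way, at 78.4 and 80.8 against 29.3 and 35.2 CPM (-1.30, adjusted p = 0.00128).

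Gc, which encodes the vitamin D binding protein and follows Slc4a4, was at 38.2 and 36.9 CPM against 702 and 705 CPM (log2 fold change 4.23, SE 0.12, adjusted p = 0.000125). Dck, on the other side of Slc4a4, was at 14.8 and 11.3 against 15.8 and 14.1 CPM (0.18, adjusted p = 0.508). Bak1, before Itpr3, was higher (1.16, adjusted p = 0.0137), and beside Aqp4 Kctd1 was higher (1.03, adjusted p = 0.00468) and Chst9 lower (-2.17, adjusted p = 0.000387). Whether counting used the strand is not stated, so reads that run from 1 gene into the next cannot be told apart from reads of that gene.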
